A study of Mus musculus with 30 samples.

Results

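The report concerns whether muscle stimulation changed gene expression differently in Achilles tendon and in calcaneus, the heel bone on which that tendon inserts, at 12 days. The quantity is a difference of differences on the log2 scale: stimulated minus unstimulated tendon, less stimulated minus unstimulated bone. It rests on 12 of the 30 samples of the series, 3 in each of 4 groups, chosen by tissue, day and stimulation in the labels, and is described across the 13622 genes expressed in both tissues of 19845 tested. A gene counted as expressed in both where its mean over the 6 libraries of each tissue was at least 1 CPM (counts-per-million). A gene near 0 in 1 group of a tissue can pass this through the other group. Irx5, Msi1 and Sstr2, named below, did so in tendon. Irx5 had means of 0.117 CPM in stimulated and 2.57 CPM in unstimulated tendon, and Msi1 1.91 and 0.381 CPM. At least 1 CPM in each of the 4 groups was met by 13368 genes, and the counts below use the wider set.

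All 12 samples came from mice of the genotype Acta1,Ai32. Stimulated tendon and stimulated bone carry the treatment "12-day stim", and unstimulated tendon and unstimulated bone the treatment "12-day opto stim control", all with day 12 as the time; the titles of the stimulated samples also hold the word control, and the ages of the animals are not given in the labels. Ai32 is a mouse line with a Cre-dependent light-gated channel joined to a yellow fluorescent protein, and Acta1 encodes the actin of skeletal muscle, the muscle attached to both tissues. The stimulated and the unstimulated groups carry the same alleles. Nothing in the labels says that the replicates were separate animals, or whether tendon and bone came from the same ones, which would bear on the error of the difference between tissues; so the p-values reflect sample-to-sample spread, part of which may be technical.

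Tendon carries the force of muscle to bone through fibroblasts embedded in aligned collagen. Bone senses load largely through osteocytes, and the calcaneus also holds marrow. Mechanical load is known to act through early response genes such as the Fos, Egr and Nr4a families, through growth factors released at the cell surface, and through secreted regulators of the Wnt pathway.

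The 12 libraries held 24.5 to 35.1 M (mega) counts in tendon and 19.3 to 35.0 M counts in bone. Bone had the osteoblast factor Sp7 at 106 to 130 CPM, and in tendon Sp7 reached at most 1.29 CPM. Tendon held the tendon factor Scx at 10.4 to 21.3 CPM and its target Tnmd at 19.2 to 71.0 CPM, against 8.13 to 15.2 and 51.8 to 119.8 CPM in bone, so both were present in tendon and their ranges overlapped those of bone. The 14 tendon fibroblast genes together took 0.333 to 1.20% of the counts of tendon and 5.52 to 7.85% of those of bone. This was a lower share in the tissue labelled tendon. The list holds the collagen genes Col1a1 and Col1a2, which the osteoblast list also holds. Osteoblast genes took a like share, 0.278 to 1.01% of tendon and 5.62 to 7.98% of bone. The share is therefore not a measure of tendon fibroblasts alone. A list of 20 muscle fibre genes took 20.3 to 23.7% of the counts of tendon and 1.01 to 4.69% of those of bone. Changes given below as in tendon are thus changes in samples with this muscle share. The cell type behind them was not tested. On the first principal component within tissue, stimulated tendon replicate 2 (-19.1) lay among unstimulated tendon (-20.7 to -1.28), whereas stimulated replicates 1 and 3 stood at 15.5 and 41.5. In bone, stimulated replicate 3 stood apart at -40.8, with the other 5 libraries between -2.76 and 20.6. In bulk tissue, fewer cells of a type and less RNA per cell cannot be told apart.

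The change with stimulation differed between the tissues for 41 of the 13622 genes expressed in both (0.301%; edgeR quasi-likelihood test, Benjamini-Hochberg adjusted p under 0.05). The difference was above 0, a more positive change in tendon, for 34 genes (0.25%) and below 0 for 7 (0.0514%). Over all genes tested there were 44 such genes (0.222%), 35 above 0 (0.176%) and 9 below (0.0454%). The genes with a positive difference included the enolase gene Eno2, the growth factor gene Hbegf, the Egr corepressor gene Nab2 and the somatostatin receptor gene Sstr2; those with a negative one included the homeobox gene Irx5 and the translation inhibitor gene Pdcd4. The change in tendon was larger in size than that in bone for 38 of the 41 genes (92.7%), against 47.6% of all genes expressed in both, and 38 of the 41 also passed the threshold in tendon alone, against 245 of all 13622 (1.8%). In bone alone 0 of all 13622 genes passed, the 41 included. These counts describe the called genes, since the same libraries chose them.

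For 36 of the 41 genes (87.8%) the tendon and bone changes had opposite signs, against 48.5% of all genes expressed in both; a large difference favours opposite signs, so this too is a description of genes chosen by it. Of the 34 genes with a positive difference, 31 were above 0 in tendon and below 0 in bone, and 3 (Tpra1, Plekho1 and St6galnac4) were above 0 in both. Of the 7 with a negative difference, 5 were below 0 in tendon and above 0 in bone, and Irx5 and Pdcd4 were below 0 in both. The median size of the log2 change over the 41 genes was 0.94 in tendon and 0.28 in bone, against 0.12 and 0.13 over all genes expressed in both. Stimulated and unstimulated tendon did not overlap for any of the 41 genes, beside 15.4% of all genes expressed in both. In bone the groups did not overlap for 21 of the 41, beside 15.9%.

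**Figure D1:**
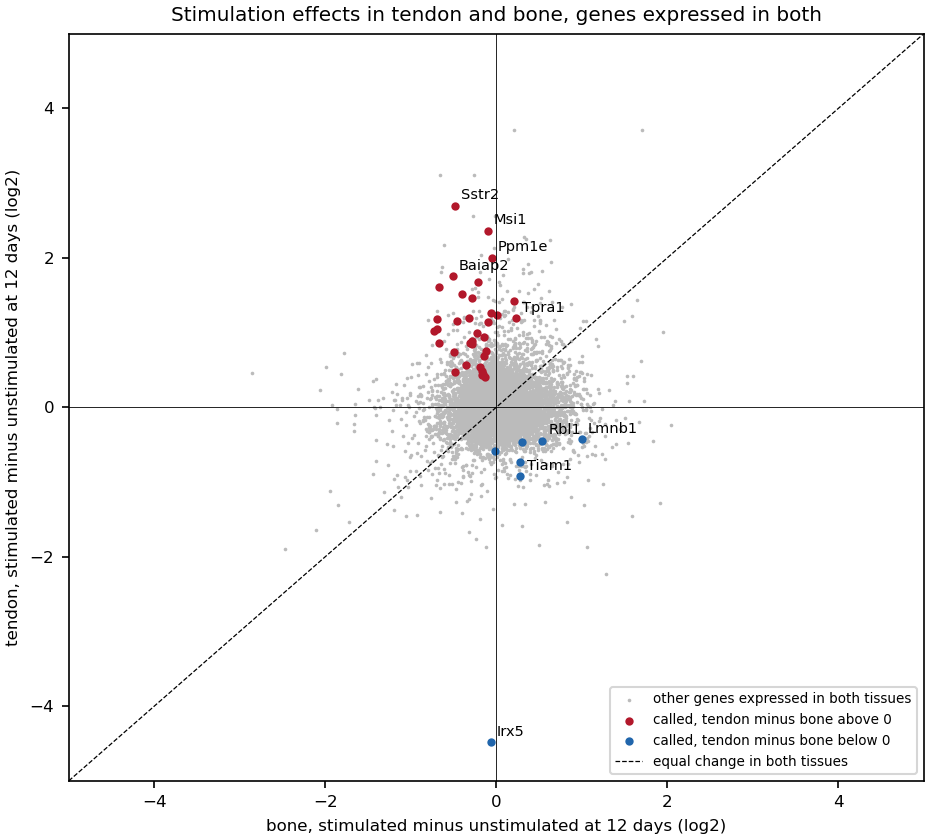
Each point is a gene expressed in both tissues, with its log2 change (stimulated minus unstimulated) in bone on the horizontal axis and in tendon on the vertical axis; the dashed line marks equal change, red and blue points are the 34 genes with a positive and the 7 with a negative tendon minus bone difference, and 2 genes lie beyond the axes. The red points lie above the origin and mostly left of it, and Irx5 stands alone at the bottom.

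Eno2, which encodes an isoform of the glycolytic enzyme enolase best known from neurons, rose in tendon. It had 12.5, 10.9 and 13.8 CPM in stimulated tendon (replicates 1 to 3), against 4.55, 4.65 and 4.34 CPM in unstimulated tendon. In bone it had 7.61, 12.2 and 7.29 CPM in stimulated and 11.6, 9.81 and 11.6 CPM in unstimulated samples. The tendon groups were far apart, and the bone groups overlapped through stimulated replicate 2. The change in tendon was 1.46 ± 0.18, that in bone -0.28 ± 0.17, and their difference 1.74 ± 0.25 (log2 ± SE, adjusted p = 0.00272, edgeR).

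The gene lies on the minus strand of mouse chromosome 6, at chr6:124760053-124769673 (GRCm38, GENCODE M21). It had the smallest p of the named genes for which a promoter sequence was at hand. The stretch from 250 bases before to 50 after its start (RefSeq, GRCm38.p6, chr6:124769624-124769923, minus strand) holds none of the cores of the cAMP response element (TGACGTC), the AP-1 site (TGACTCA) and the E-box (CACGTG), sought on both strands.
Eno2: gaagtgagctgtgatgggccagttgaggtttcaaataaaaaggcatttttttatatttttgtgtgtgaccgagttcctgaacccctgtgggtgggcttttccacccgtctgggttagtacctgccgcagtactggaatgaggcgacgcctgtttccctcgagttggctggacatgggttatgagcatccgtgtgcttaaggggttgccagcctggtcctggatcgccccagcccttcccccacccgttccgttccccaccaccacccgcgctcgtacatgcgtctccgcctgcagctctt

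Hectd2, which encodes a ubiquitin ligase of the HECT family, moved in opposite directions. It had 11.8, 8.84 and 10.5 CPM in stimulated tendon, against 5.01, 5.40 and 4.97 CPM in unstimulated tendon. Bone held 2.02, 2.49 and 2.59 CPM when stimulated and 4.11, 3.99 and 3.67 CPM when unstimulated. Neither pair of groups overlapped, the stimulated one being higher in tendon and lower in bone. The tendon change was 1.02 ± 0.17 (adjusted p = 0.00374, edgeR), the bone change -0.72 ± 0.18 (adjusted p = 0.171), and the difference 1.74 ± 0.25 (adjusted p = 0.00272). Hectd2 shares 1834 exon bases with an antisense gene, and the strand setting of the counting is not given in the sources used here, so reads of the pair cannot be told apart.

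Rgcc, named as a regulator of the cell cycle and induced by complement, followed the same pattern. It had 124, 125 and 147 CPM in stimulated tendon, against 67.3, 57.9 and 49.4 CPM in unstimulated tendon. In bone there were 62.9, 56.7 and 37.2 CPM with stimulation and 84.8, 92.5 and 75.3 CPM without. Every stimulated library was above the unstimulated ones in tendon and below them in bone. The difference was 1.87 ± 0.28 (adjusted p = 0.00329, edgeR), from 1.18 in tendon and -0.69 in bone.

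Chd9, a chromatin remodeller of the CHD family, was also among the genes with the smallest p. It had 153, 113 and 188 CPM in stimulated tendon, against 68.0, 74.8 and 63.9 CPM in unstimulated tendon, and 47.9 to 59.5 CPM in all 6 bone libraries. The tendon groups were separate, the bone groups overlapped, and the difference was 1.23 ± 0.18 (adjusted p = 0.00272, edgeR). Chd9 was outside the 12 largest differences and is named for its p, a choice made after its values were seen.

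Among the called genes expressed in both tissues, the largest positive difference belonged to Sstr2, a receptor for the peptide somatostatin. Stimulated tendon had 2.704, 2.08 and 5.78 CPM and unstimulated tendon 0.413, 0.648 and 0.582 CPM; stimulated bone had 4.44, 3.44 and 2.67 CPM and unstimulated bone 5.19, 5.99 and 3.47 CPM. Tendon at rest held little of this transcript, with 34 counts over 3 libraries, against 238 counts in stimulated tendon, a ratio of 6.86 (95% exact interval 4.78 to 10.1, counting error only). Bone held it at a level that overlapped between the groups. The difference was 3.18 ± 0.64 (adjusted p = 0.0354, edgeR).

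The promoter of Sstr2 (RefSeq, GRCm38.p6, chr11:113619077-113619376, plus strand, same span around the start) was the one among those at hand of the 12 largest positive differences that holds the cAMP response element core, and is shown for that. Hectd2, Msi1 and Hbegf had no promoter sequence at hand and were not searched. The capitals mark 2 overlapping matches, 1 on each strand, 58 and 57 bases before the start.
Sstr2: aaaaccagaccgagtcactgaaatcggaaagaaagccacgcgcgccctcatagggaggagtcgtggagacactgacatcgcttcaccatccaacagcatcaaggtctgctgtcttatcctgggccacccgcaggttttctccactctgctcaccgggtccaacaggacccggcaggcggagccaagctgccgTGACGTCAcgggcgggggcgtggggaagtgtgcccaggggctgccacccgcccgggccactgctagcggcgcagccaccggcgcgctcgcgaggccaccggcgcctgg

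Of the 34 genes with a positive difference, 26 had a promoter in the RefSeq table, 34 promoters in all. The cAMP response element core stood in 3 of these 34 promoters (8.82%), against 3.21% of 32851 promoters of the same length; its holders were Plekho1, Sstr2 and Trmt61a. The AP-1 core stood in 2 (5.88% against 5.20%) and the E-box in 4 (11.8% against 7.15%). Matches are a description of letters and not of bound sites.

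**Figure D2:**
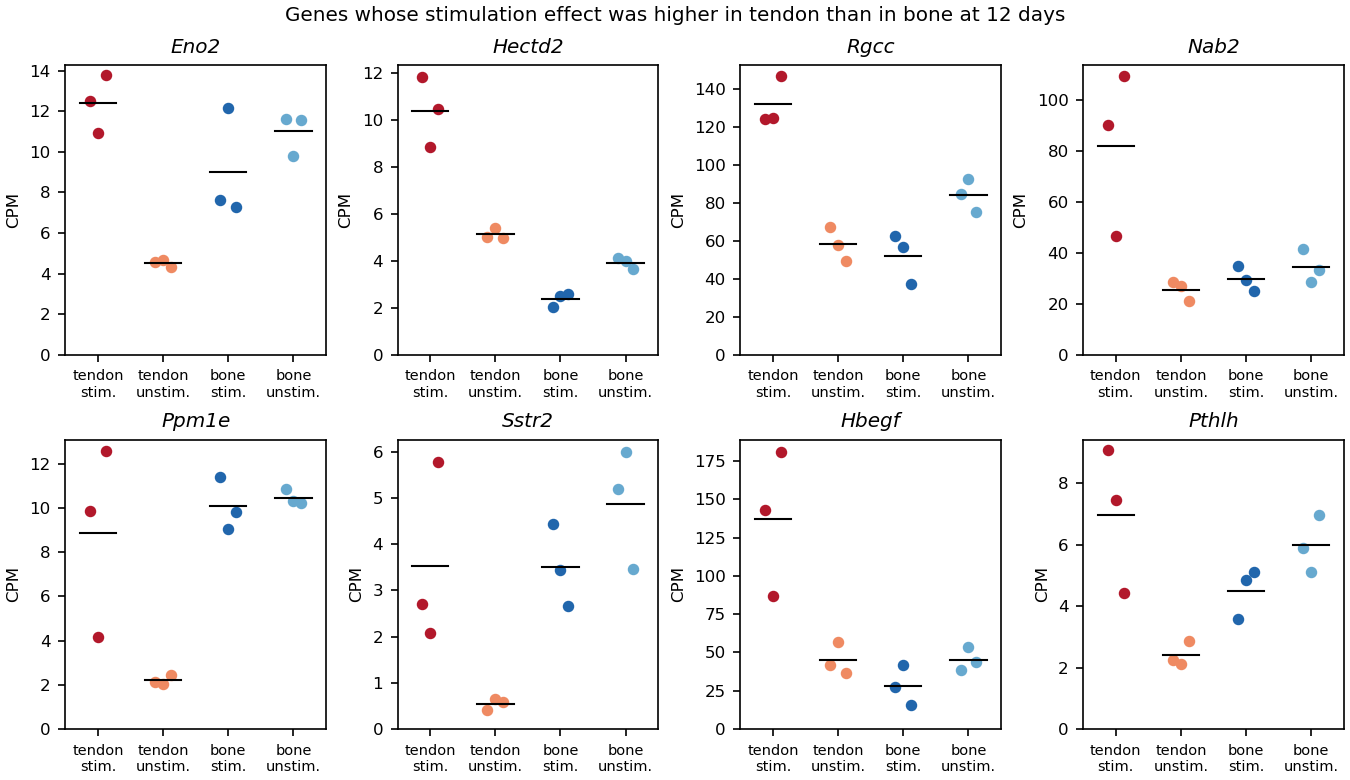
Each panel gives one gene's CPM (vertical axis from 0) in the 3 libraries of stimulated tendon, unstimulated tendon, stimulated bone and unstimulated bone, with the group mean as a line. In all 8 panels the stimulated tendon libraries lie above the unstimulated ones, and the bone groups overlap for 6 of the genes but not for Hectd2 and Rgcc.

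Hbegf, a ligand of the epidermal growth factor receptor, had 143, 87.2 and 181 CPM in stimulated tendon and 41.7, 56.8 and 36.4 CPM in unstimulated tendon. In bone it had 27.3, 41.8 and 15.9 CPM with stimulation, against 38.6, 53.3 and 43.9 CPM without. The tendon groups were separate and the bone groups overlapped; the difference was 2.28 ± 0.45 (adjusted p = 0.0313, edgeR). Pthlh, the parathyroid hormone related peptide, which acts locally in cartilage and at tendon insertions, had 9.07, 7.45 and 4.41 CPM in stimulated and 2.25, 2.11 and 2.87 CPM in unstimulated tendon. In bone it stood at 3.57, 4.83 and 5.12 CPM with stimulation and 5.91, 5.11 and 6.97 CPM without, overlapping by a narrow margin, and the difference was 1.93 ± 0.40 (adjusted p = 0.0447). Lingo1, a membrane protein of the nervous system, had 4.45, 3.70 and 7.50 CPM in stimulated and 2.02, 2.32 and 3.22 CPM in unstimulated tendon. Its bone groups, 2.50, 2.92 and 2.74 against 3.71, 4.42 and 5.10 CPM, were apart in the other direction, and the difference was 1.75 ± 0.34 (adjusted p = 0.0267).

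Among regulators inside the cell, Nab2, a corepressor of the Egr factors, had 90.1, 46.6 and 109 CPM in stimulated tendon, against 28.4, 27.1 and 21.3 CPM in unstimulated tendon. Bone had 34.7, 29.2 and 25.2 CPM with stimulation and 41.6, 28.6 and 33.4 CPM without, so that only the tendon groups were separate, and the difference was 1.90 ± 0.32 (adjusted p = 0.0114, edgeR). Nab2 and Chd9, like Hectd2, share exon bases with antisense genes. Ppm1e, a serine and threonine phosphatase, had 9.86, 4.16 and 12.6 CPM in stimulated tendon, 2.11, 2.05 and 2.46 CPM in unstimulated tendon and 9.06 to 11.4 CPM in all 6 bone libraries. Its level in bone did not separate the groups, and the difference was 2.05 ± 0.36 (adjusted p = 0.0114). Msi1, an RNA-binding protein known from stem cells, had 1.98, 1.02 and 2.73 CPM in stimulated tendon, 0.413, 0.594 and 0.134 CPM in unstimulated tendon and 8.60 to 9.89 CPM in bone. It counted 125 reads in stimulated tendon against 23 in unstimulated tendon, and the difference was 2.47 ± 0.45 (adjusted p = 0.0148).

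Baiap2, an adaptor protein of the actin cytoskeleton, had 53.4, 19.4 and 58.9 CPM in stimulated tendon and 13.2, 14.5 and 11.4 CPM in unstimulated tendon. Bone had 24.3, 26.9 and 19.05 CPM with stimulation, against 36.0, 30.3 and 33.7 CPM without; both pairs of groups were separate, in opposite directions, and the difference was 2.26 ± 0.40 (adjusted p = 0.0124, edgeR). The protease inhibitor gene Serpinb8 had 10.5, 5.598 and 12.9 CPM in stimulated tendon and 4.18 to 4.48 CPM in unstimulated tendon, and in bone 10.4, 10.9 and 6.25 CPM with stimulation, against 12.1 to 13.0 CPM without. Its difference was 1.61 ± 0.32 (adjusted p = 0.0294). In 10 of the 12 genes with the largest positive difference, all but Pthlh and Rgcc, stimulated tendon replicate 2 had the lowest level of its group.

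The other genes with a positive difference ranged down to 0.54 for Pon2, which encodes an intracellular lactonase. They included the transporter gene Slc22a4 (1.53 ± 0.26, adjusted p = 0.0114, edgeR), the phosphodiesterase gene Pde10a (1.32 ± 0.25, adjusted p = 0.0203), the pericyte proteoglycan gene Cspg4 (1.23 ± 0.26, adjusted p = 0.0486) and the autophagy gene Gabarapl1 (0.66 ± 0.12, adjusted p = 0.0194). Tpra1 rose in tendon by 1.19 ± 0.12 (adjusted p = 1.26e-05) and stood at 0.23 ± 0.12 in bone (adjusted p = 0.415), a difference of 0.96 ± 0.16. These genes were chosen from the called ones after their values were seen.

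On the negative side, Irx5 had the largest difference in size. It encodes a homeobox factor of the Iroquois family with a role in skeletal development. Stimulated tendon had 0.180, 0.0925 and 0.0781 CPM, which are 3, 2 and 2 counts, against 1.47, 3.83 and 2.42 CPM in unstimulated tendon, which are 32, 71 and 54 counts. The ratio of the tendon groups was 0.0437 (95% exact interval 0.0173 to 0.0922, counting error only). In bone Irx5 had 11.9, 8.21 and 6.89 CPM with stimulation, against 10.01, 10.002 and 8.22 CPM without. It was thus low in all stimulated tendon libraries while bone overlapped, and the fitted difference was -4.42 ± 0.65 (adjusted p = 0.00272, edgeR), a value that depends on few counts in stimulated tendon.

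Tiam1, an exchange factor that activates Rac, had 5.29, 5.04 and 3.75 CPM in stimulated tendon, against 7.44, 9.07 and 9.99 CPM in unstimulated tendon. Bone had 16.4, 12.6 and 20.3 CPM with stimulation and 12.7, 13.1 and 14.6 CPM without. Tendon fell without overlap, bone overlapped, and the difference was -1.20 ± 0.21 (adjusted p = 0.0117, edgeR). Pdcd4, which restrains translation initiation, had 15.02, 17.4 and 14.9 CPM in stimulated tendon, against 24.4, 23.8 and 22.6 CPM in unstimulated tendon. Its 6 bone libraries lay at 38.5 to 45.5 CPM with both groups intermixed, and its difference of -0.57 ± 0.10 (adjusted p = 0.0165) matched the tendon change of -0.58 ± 0.08. Enox2, a surface NADH oxidase, had 13.8, 11.7 and 11.6 CPM in stimulated and 20.1, 22.1 and 19.7 CPM in unstimulated tendon, and in bone 9.24, 9.30 and 10.1 CPM against 7.67, 9.36 and 6.59 CPM; the difference was -1.01 ± 0.21 (adjusted p = 0.0468).

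For the other negative genes the bone values took a larger part of the difference. Lmnb1, which encodes lamin B1 of the nuclear envelope, had 34.5, 25.5 and 43.6 CPM in stimulated bone, against 13.5, 20.6 and 17.6 CPM in unstimulated bone. In tendon it had 7.03, 8.56 and 7.07 CPM with stimulation and 10.1, 9.56 and 10.8 CPM without. Both pairs were separate, in opposite directions; the bone change was 0.998 ± 0.21 (adjusted p = 0.0937, edgeR) and the difference -1.42 ± 0.30 (adjusted p = 0.04999). Rbl1, a relative of the retinoblastoma protein that restrains the cell cycle, had 4.63, 3.89 and 4.02 CPM in stimulated tendon, 5.33, 4.70 and 6.99 CPM in unstimulated tendon, 10.7, 10.5 and 13.7 CPM in stimulated bone and 7.31, 8.56 and 8.19 CPM in unstimulated bone (difference -0.98 ± 0.20, adjusted p = 0.0441). Serpinb9, an inhibitor of granzyme B, had 7.15, 7.13 and 6.25 CPM against 9.69, 9.398 and 9.18 CPM in stimulated and unstimulated tendon, and 11.4, 11.2 and 10.7 CPM against 8.97, 9.42 and 8.63 CPM in bone (difference -0.76 ± 0.15, adjusted p = 0.0336). Cell cycle genes had a positive median change and erythroid genes a larger share of counts in 2 of the 3 stimulated bone libraries, as given with the gene lists, and their part in these values was not tested.

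**Figure D3:**
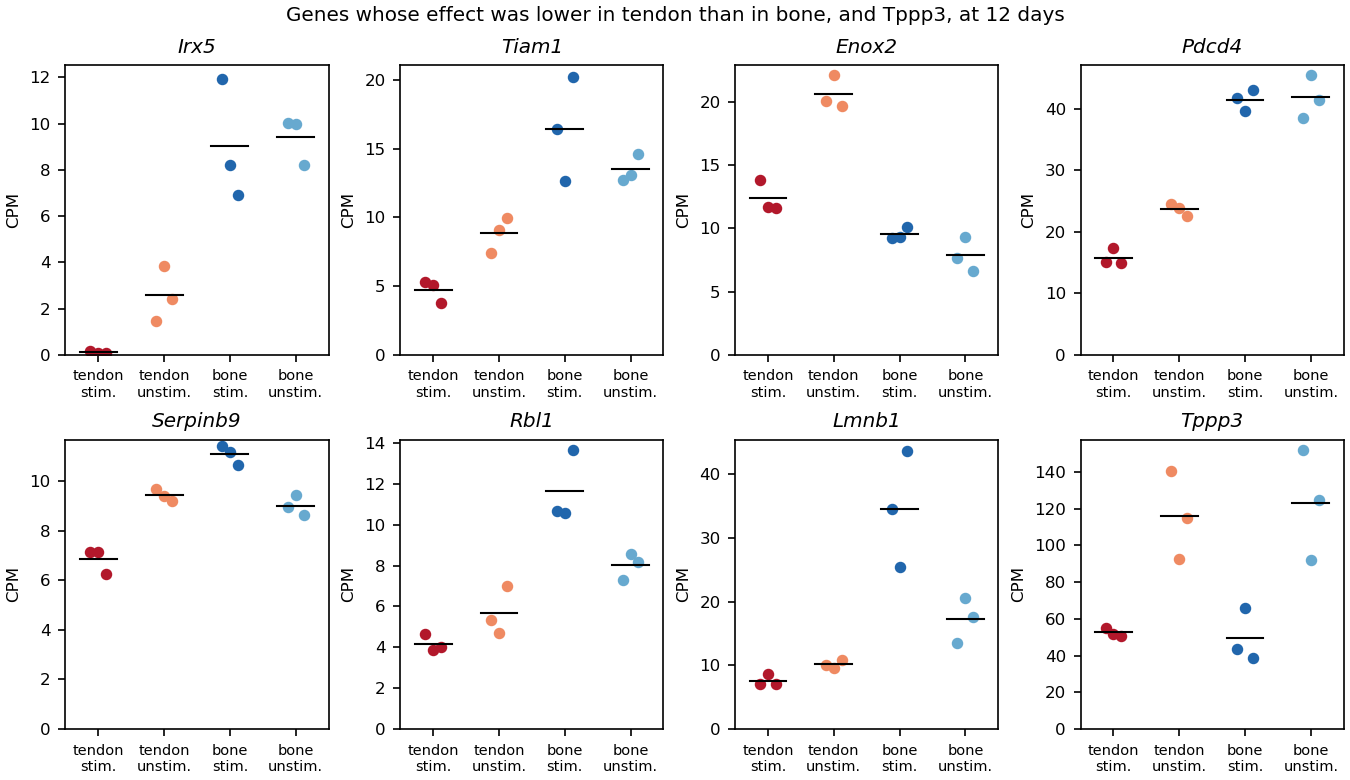
Each panel gives one gene's CPM (vertical axis from 0) in the 3 libraries of stimulated tendon, unstimulated tendon, stimulated bone and unstimulated bone, with the group mean as a line; the last panel is Tppp3, whose tendon minus bone difference did not pass the threshold. In the first 7 panels stimulated tendon lies below unstimulated tendon, and for Tppp3 the stimulated libraries lie below the unstimulated ones in both tissues.

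Some genes with large changes in tendon did not pass the test of the difference. Atf3, an early stress response factor, had 204, 68.5 and 224 CPM in stimulated tendon, against 10.8, 34.8 and 12.3 CPM in unstimulated tendon, and in bone 11.1, 6.32 and 6.72 CPM with stimulation, against 23.4, 5.56 and 9.58 CPM without. It rose in tendon by 3.11 ± 0.58 (adjusted p = 0.00940, edgeR) and its difference of 3.77 ± 0.80 was the first outside the threshold (adjusted p = 0.0547), while Abl2 was the last inside it (0.04999). Hk2, the hexokinase of muscle, had 1263, 858 and 897 CPM in stimulated and 348, 382 and 406 CPM in unstimulated tendon, and 45.6, 52.7 and 87.8 CPM in stimulated and 42.2, 31.8 and 44.8 CPM in unstimulated bone. Both tissues had separate groups with the stimulated one higher, and the difference was 0.76 ± 0.43 (adjusted p = 0.549). Ppargc1a, a coactivator of mitochondrial genes, had a difference of 1.14 ± 0.59 (adjusted p = 0.495) and the imprinted noncoding gene Rian one of -0.91 ± 0.32 (adjusted p = 0.260).

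Tppp3, which marks cells of the tendon sheath, was low in both tissues after stimulation. It had 55.2, 51.8 and 50.9 CPM in stimulated tendon, against 141, 92.4 and 115 CPM in unstimulated tendon, and 43.6, 65.8 and 38.5 CPM in stimulated bone, against 152, 91.9 and 125 CPM in unstimulated bone. No library overlapped in either tissue. It was among 67 genes expressed in both tissues (0.492%) whose mean change over the tissues passed, a test added after the data were seen. The changes were -1.14 ± 0.27 in tendon (adjusted p = 0.0387, edgeR) and -1.32 ± 0.27 in bone (adjusted p = 0.0937), and their difference was 0.18 ± 0.38 (adjusted p = 0.934). For the tendon and bone marker genes Scx, Tnmd, Col1a1 and Ctsk the difference lay between -0.06 and 0.28, with standard errors of 0.42 to 0.78, and 0 of them passed. The bone markers Sp7 and Sost did not count as expressed in both tissues. Their differences were 3.10 ± 1.44 and 1.62 ± 2.06 (adjusted p = 0.441 and 0.850, edgeR). That of the muscle gene Acta1 was -0.76 ± 1.09 (adjusted p = 0.871, edgeR).

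Within tendon alone 245 of the 13622 genes passed the threshold (1.8%), 204 higher (1.5%) and 41 lower with stimulation. Over all genes tested 274 passed (1.38%), 225 of them higher (1.13%); the number was 165, 823 and 35 without stimulated tendon replicates 1, 2 and 3, and 51, 82 and 44 without unstimulated ones. Within bone alone 0 genes passed with edgeR, where 2602 of 19845 (13.1%) had an unadjusted p under 0.05; DESeq2 called 125 genes, limma-voom with quality weights 287, and edgeR on bone libraries alone 7. Those 7 were Stc2, Vcan, Chit1, Atp2b4, Ano1, Sdk2 and Lgr6, all lower in stimulated bone. The count of 0 became 277 without stimulated bone replicate 2 and 140 without unstimulated bone replicate 2, and 3, 8 and 6 without stimulated bone replicate 3 and stimulated tendon replicates 2 and 3. A threshold passed in tendon and missed in bone does not itself show a difference between them, which is what the 41 genes above test. Of the 204 genes that rose in tendon, 104 (51.0%) had the same sign in bone, with a median bone change of 0.01, and 19 (9.31%) had an unadjusted p under 0.05 there; over all genes expressed in both these shares were 51.5% and 12.7%. Of the 41 that fell in tendon, 26 (63.4%) had the same sign in bone, with a median of -0.04, and 8 (19.5%) had an unadjusted p under 0.05 there. The base differs by direction. Of all 13622 genes, 3944 were above 0 in both tissues and 2872 above 0 in tendon and below 0 in bone. Another 3071 were below 0 in both, and 3735 below 0 in tendon and above 0 in bone. With the tissues fitted separately, 18 of 46 genes higher in tendon (39.1%) had the same sign in bone, as did 7 of 8 genes lower in tendon (87.5%), and 4 of 5 genes lower in bone had the same sign in tendon. Across the 13622 genes the tendon and bone changes had a Pearson r of -0.02 and a Spearman rho of 0.03, a description over genes of the same libraries.

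At 5 days, in separate samples, 0 genes passed the test of the same difference with edgeR, with 1248 (6.29%) under an unadjusted p of 0.05, 48 called by DESeq2 and 453 by limma-voom. Of the 41 genes called at 12 days, 36 (87.8%) had the same sign at 5 days, against 54.2% of all genes expressed in both. Their median size was 0.26 at 5 days and 1.22 at 12 days, against 0.16 and 0.18 over all genes expressed in both. The 12-day values chose these genes, so the sizes do not measure growth between the days. The change of the difference between the days passed for 0 of the genes expressed in both (edgeR; over all 19845 genes, 1175 (5.92%) had an unadjusted p under 0.05, DESeq2 called 8 and limma-voom 3). The single gene that passed over all genes tested (0.00504%) was Notum, an enzyme that inactivates Wnt proteins, whose mean in tendon was under 1 CPM. It had 2.10, 0.694 and 1.87 CPM in stimulated tendon, against 0.184, 0.108 and 0.358 CPM in unstimulated tendon, and in bone 9.20, 7.995 and 7.53 CPM with stimulation, against 10.9, 11.5 and 10.8 CPM without. Neither pair overlapped, and the difference was 3.20 ± 0.41 at 12 days (adjusted p = 0.00166) and -0.75 at 5 days, 3.95 apart (adjusted p = 0.00878). Notum shares 708 exon bases with an antisense gene, whose reads cannot be told apart from its own here. Zan and Gabrr2 were the other 2 genes called outside those expressed in both.

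Of 36 lists of pathway and cell type genes, 33 held no called gene among their members expressed in both tissues. Only 41 of all 13622 genes expressed in both were called, so a list without a call says little about its members. The exceptions were the stress and growth factor receptor list, with Nab2 and Hbegf of 14 members above 0, the glycolysis list, with Eno2 of 19 above 0, and the osteocyte list, with Irx5 of 6 below 0. Over all genes expressed in both, 34 were called above and 7 below 0, and the median difference was -0.03.

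In the stress and growth factor receptor list the median difference was 0.37, from 0.46 in tendon and -0.06 in bone, with 8 members above 0 and 6 below. Besides Nab2 and Hbegf, Tnfrsf12a, the receptor of the cytokine TWEAK, had 199, 65.4 and 206 CPM in stimulated tendon, against 42.4, 51.0 and 35.3 CPM in unstimulated tendon. Its bone levels were 13.0, 14.1 and 11.4 CPM with stimulation and 30.7, 9.64 and 19.9 CPM without. It rose in tendon (1.87 ± 0.41, adjusted p = 0.0241, edgeR), and its difference of 2.51 ± 0.58 did not pass (adjusted p = 0.0806). Of 25 early response genes 16 were above 0 and 9 below, with a median of 0.16, which was -0.14 without stimulated tendon replicate 2 and -0.10 with a marrow score in the fit; Nr4a3, an orphan nuclear receptor, rose in tendon (2.56 ± 0.48, adjusted p = 0.00924), with a difference of 2.58 ± 0.71 (adjusted p = 0.138). The heat shock genes Hspa1a and Hspa1b rose in tendon, with differences of 2.78 ± 0.71 (adjusted p = 0.107) and 2.46 ± 0.60 (adjusted p = 0.0993); Hspa1a had 76.2, 25.3 and 167 CPM in stimulated tendon, against 18.4, 29.5 and 12.1 CPM in unstimulated tendon, so that replicate 2 overlapped.

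Of the 19 glycolysis genes, Eno2 included, 7 were above 0 and 12 below, with a median of -0.24; it was 0.01 without stimulated bone replicate 3 (11 above, 8 below), 0.01 with limma-voom (10 above) and 0.08 with a muscle fibre score in the fit (13 above). Of 17 exercise metabolism genes 6 were above 0 and 11 below, and 10 were above 0 without stimulated bone replicate 3. Of 12 muscle regeneration genes 9 were above 0, with a median of 0.55 (-0.07 without stimulated tendon replicate 3). Of 16 Wnt genes expressed in both 7 were above 0 and 9 below, and of 20 TGF-beta and BMP genes 13 were above 0, with medians of -0.07 and 0.03, both of which changed sign without single libraries. Collagen genes had 18 of 20 members above 0 and a median of 0.25, which was 0.02 without stimulated tendon replicate 2 and 0.05 without stimulated bone replicate 3 (9 below 0 in each case). With limma-voom, the muscle score and the marrow score 12, 11 and 12 of the 20 were below 0, with medians of -0.02, -0.0072 and -0.12. Tendon fibroblast genes had 12 of 14 above 0 and a median of 0.21, which was -0.13 without stimulated tendon replicate 2, -0.16 with limma-voom and -0.18 with the marrow score.

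Several lists were almost wholly on one side of 0 without a called member. All 19 interferon-stimulated genes expressed in both were below 0, with a median of -0.58, from -0.24 in tendon and 0.31 in bone; without each of the 12 libraries in turn the median was -0.91 to -0.42. Isg15, a ubiquitin-like protein induced by interferon, had 1.74, 3.70 and 2.11 CPM in stimulated and 3.17, 4.54 and 3.40 CPM in unstimulated tendon, and 12.5, 5.84 and 9.45 CPM in stimulated and 4.79, 5.88 and 5.37 CPM in unstimulated bone (difference -1.33 ± 0.44, adjusted p = 0.237, edgeR). Of 18 chaperones and folding enzymes of the endoplasmic reticulum 16 were below 0, with a median of -0.31, from -0.31 in tendon and 0.02 in bone, and -0.43 to -0.23 without single libraries. The smallest p of that list was that of the disulfide isomerase gene Pdia6, with 118, 86.0 and 80.8 CPM in stimulated and 123, 128 and 126 CPM in unstimulated tendon and a difference of -0.57 ± 0.15 (adjusted p = 0.130). All 17 cell cycle genes expressed in both were below 0, with a median of -0.65, from 0.15 in tendon and 0.84 in bone. Their median was -0.43 without stimulated bone replicate 3, and with the marrow score 9 were above 0 and 8 below, with a median of 0.0003. Aurka, a mitotic kinase, had the smallest p (difference -1.59 ± 0.38, adjusted p = 0.0851).

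**Figure D4:**
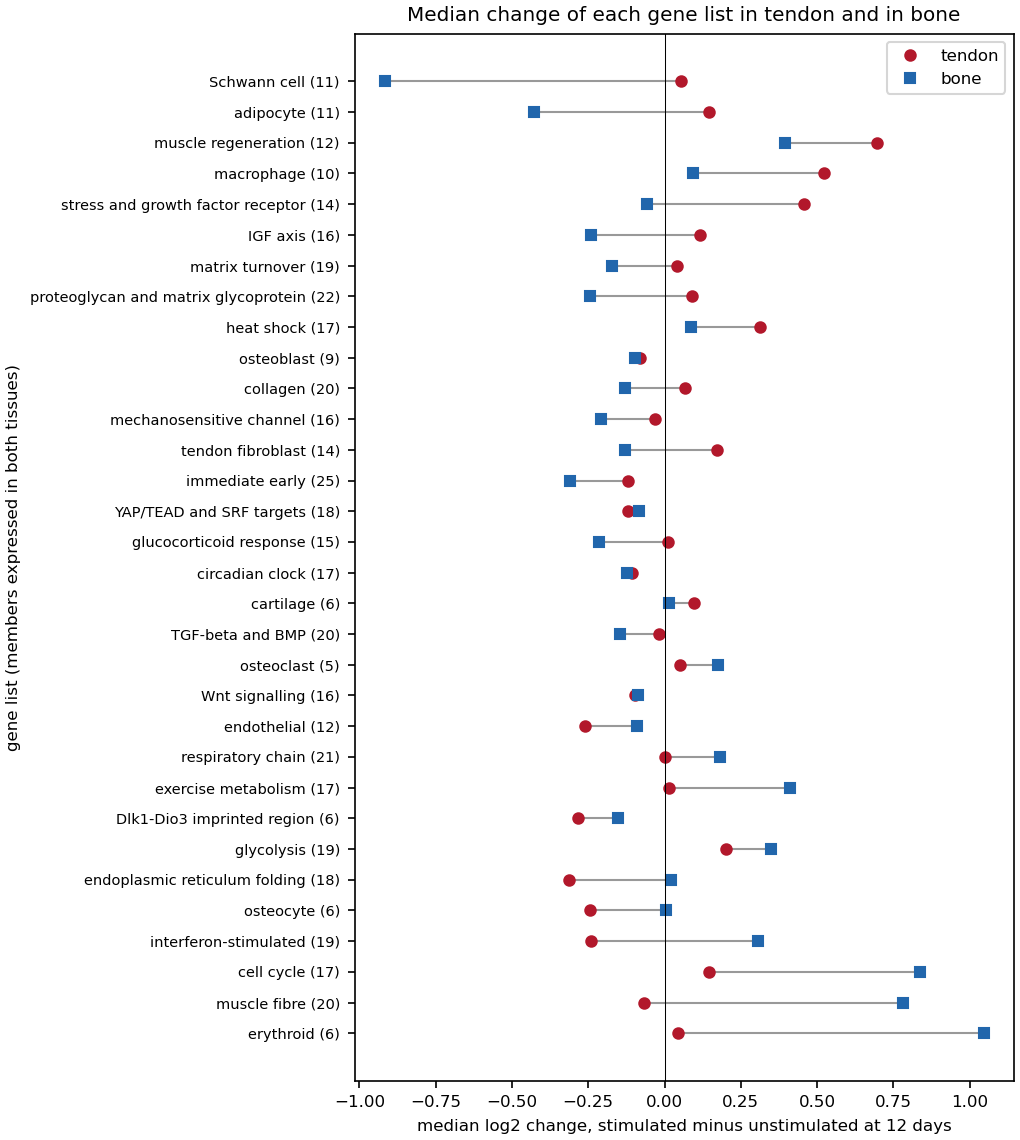
Median log2 change, stimulated minus unstimulated at 12 days (horizontal axis), of each of the 32 lists with at least 5 members expressed in both tissues, in tendon (circles) and in bone (squares), joined by a line and ordered by the median tendon minus bone difference; the number of those members is in brackets. The longest lines belong to lists whose bone median lies away from 0 while the tendon median stays near it: Schwann cell at the top, and cell cycle, muscle fibre and erythroid at the bottom.

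Marker genes of other cell types differed in share among the bone libraries. In bone 0 of all 19845 genes tested passed, so the lack of called markers there is no result about them. Stimulated and unstimulated bone overlapped for the muscle fibre, erythroid, neutrophil and Schwann cell lists. They did not overlap for adipocyte genes, at 0.312, 0.292 and 0.286% of stimulated bone, against 0.361, 0.457 and 0.366% of unstimulated bone. Of 11 adipocyte genes 10 had a difference above 0, with a median of 0.61 (0.08 with the muscle score). Keratinocyte genes, at most 0.00301% of bone, were also lower without overlap in stimulated bone. Muscle fibre genes took 1.48, 3.02 and 4.69% of the counts of stimulated bone, against 1.99, 1.01 and 2.01% of unstimulated bone, and 20.3 to 23.1% of stimulated and 22.4 to 23.7% of unstimulated tendon. The high values were those of stimulated bone replicates 2 and 3. Of the 20 muscle fibre genes 19 had a difference below 0, with a median of -0.81 (-0.41 without stimulated bone replicate 3), and all 21 respiratory chain genes were below 0, with a median of -0.17 (-0.01 without it, and 0.04 with the muscle score). Erythroid genes took 1.19, 0.682 and 2.08% of stimulated bone and 0.389, 0.730 and 0.847% of unstimulated bone, and under 0.03% of tendon; the 6 expressed in both tissues were below 0, with a median of -0.91 (-0.41 without stimulated bone replicate 3). Neutrophil genes took 0.606, 0.346 and 0.766% of stimulated bone, against 0.207, 0.421 and 0.236% of unstimulated bone, and at most 0.00026% of tendon. Schwann cell genes, which mark nerve, took 0.0835, 0.0412 and 0.0430% of stimulated bone, against 0.0764, 0.126 and 0.237% of unstimulated bone, with 0.0490, 0.00670 and 0.0489% of stimulated and 0.00803, 0.0173 and 0.0806% of unstimulated tendon; all 11 expressed in both had a difference above 0, with a median of 1.10. It was 2.12 without unstimulated tendon replicate 3, 0.22 with the muscle score (9 above, 2 below) and 0.18 with the marrow score (7 above, 4 below). In all 6 tendon libraries 2 of 15 neutrophil and 4 of 13 erythroid genes were at 0. The part of these cell types in the difference between tissues was not tested beyond the fits given next.

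**Figure D5:**
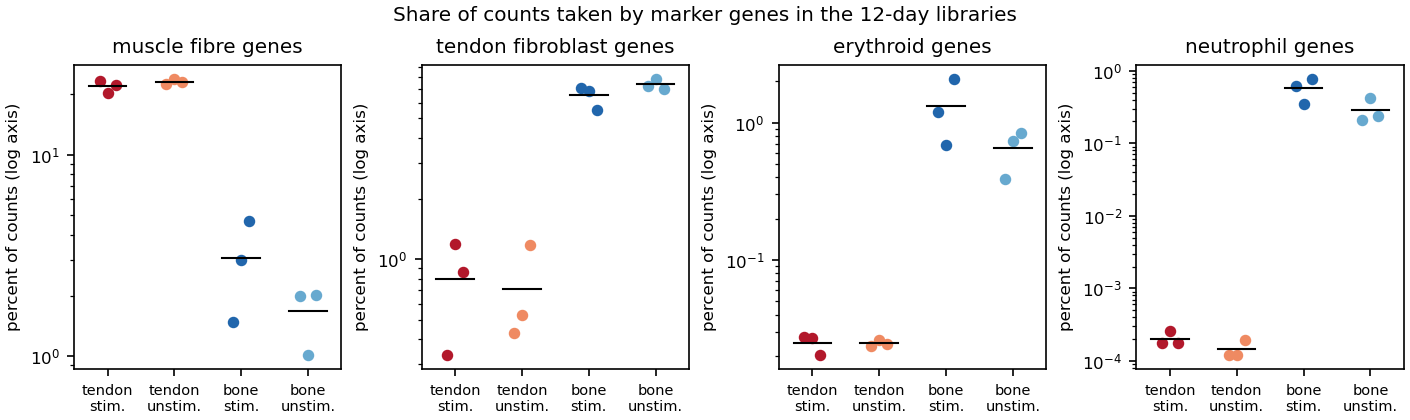
Share of all counts, in percent on log axes of different ranges, taken by muscle fibre, tendon fibroblast, erythroid and neutrophil genes in each of the 12 libraries, with the group mean as a line. Stimulated bone spreads upward in muscle fibre, erythroid and neutrophil genes, and the tendon groups overlap in all 4 panels.

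A muscle fibre score or a marrow score was added to the fit, with a slope in each tissue. With these, 7 and 2 genes expressed in both passed in place of 41 (edgeR). The marrow score was the mean log2 CPM of the erythroid and neutrophil genes. In tendon these took at most 0.0275 and 0.00026% of counts, so the score there rests largely on genes with few counts. Of the 41, Chd9, Eno2, Garem1, Hectd2, Irx5 and Rgcc remained under the muscle score, and Hectd2 and Irx5 under the marrow score. With the 12 libraries alone, and so fewer degrees of freedom, 3 genes passed, Hectd2 and Slc22a4 of the 41 among them. The number of genes expressed in both that passed depended on single libraries. It was 330 without stimulated tendon replicate 2, 72 without stimulated bone replicate 2, and 9 without stimulated tendon replicate 3. Without unstimulated tendon replicates 1, 2 and 3 it was 22, 24 and 8, without stimulated bone replicates 1 and 3 it was 24 and 18, and without unstimulated bone replicates 1 and 3 it was 22 and 21. All 41 genes were among the 330, and Chd9, Eno2, Hectd2, Irx5 and Rgcc were among both the 8 and the 9.

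The transgene itself was measured. Counts assigned to the yellow fluorescent protein gave 1779, 1751 and 1359 CPM in stimulated tendon, against 2355, 2525 and 2147 CPM in unstimulated tendon, and 285, 442 and 459 CPM in stimulated bone, against 473, 363 and 444 CPM in unstimulated bone. The tendon groups were separate and the bone groups overlapped, yet the difference of -0.41 ± 0.35 did not pass (adjusted p = 0.734, edgeR). Cre counts were 2.04 to 8.16 CPM in tendon and 0.0859 to 0.243 CPM in bone.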

How the data were processed

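RNA was isolated with a PureLink kit and made into poly-A libraries, per the labels' protocols. The authors deposited expected counts per gene from RSEM, all whole numbers as deposited. Cutadapt 2.3, FastQC 0.11.8, STAR 2.7.8a, RSEM 1.3.3, MultiQC 1.7 and the build GRCm38 are named, per the submitters' processing notes; for the annotation, the strand setting and the order of steps, nothing is stated there or in the labels. Of 55426 features 55154 (99.5%) matched GENCODE M21.

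Groups came from the labels. The fit used edgeR 4.0.16 (R 4.3.3) with TMM scaling, a filter on low counts (minimum count 10, minimum total 15) and a robust quasi-likelihood test over all 29 libraries with 10 group means, so that all groups share one estimate of the spread. Unstimulated bone replicates 1 and 2 at 5 days differed far less than any of the 29 other pairs (biological coefficient of variation 2.64%, against 8.88 to 33.2%) and were summed as 1 sample. P-values were Benjamini-Hochberg adjusted over 19845 genes. CPM values are TMM-scaled; a standard error is the log2 difference divided by the square root of its F statistic. The steps were tested on simulated data.

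The named genes were, of those called and expressed in both tissues, the 12 with the largest positive and up to 12 with the largest negative difference, leaving out predicted genes, Y genes and genes of X inactivation, up to 4 members of each list with the smallest p, and 15 genes always given. The members and the 36 gene lists were chosen with earlier results of these data known. Alternatives were DESeq2 1.42.0, limma-voom (limma 3.58.1), other scalings and filters, the replicate number as a block, muscle and marrow scores as covariates, the bone pair kept apart and single libraries left out. Depth intervals cover counting error only. The smallest two-sided p of an exact permutation test of 3 samples against 3 is 0.1, so no such test was used.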

Additional observations from a re-analysis of the deposited data

Results flagged for a closer look

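By a test of the difference itself, 41 of the 13622 genes expressed in both tissues passed (edgeR, adjusted p under 0.05). The 19 listed here are the 12 named genes with the largest positive difference and the 7 with a negative one. The log2 difference, tendon minus bone, was 3.18 for Sstr2, 2.47 for Msi1, 2.28 for Hbegf, 2.26 for Baiap2, 2.05 for Ppm1e and 1.93 for Pthlh. It was 1.90 for Nab2, 1.87 for Rgcc, 1.75 for Lingo1, 1.74 for Eno2, 1.74 for Hectd2 and 1.61 for Serpinb8. On the negative side it was -4.42 for Irx5, -1.42 for Lmnb1, -1.20 for Tiam1, -1.01 for Enox2, -0.98 for Rbl1, -0.76 for Serpinb9 and -0.57 for Pdcd4. Stimulated and unstimulated tendon were separate for all 19 genes, beside 15.4% of all genes expressed in both. The same libraries chose these genes, so this describes them and is no further evidence.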

How the results depend on the processing

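All 19 named differences kept their direction in every alternative run, which is a description, since these runs used the libraries that chose the genes. Of them 19 passed with DESeq2, 16 with limma-voom, 12 with no count filter, 4 with the muscle score and 2 with the marrow score. With the 12 libraries alone 1 passed, and 0 with the replicate block, shared or within tissue. Without single libraries 5 (stimulated tendon replicate 3 left out) to 19 passed. Against 44 genes called for the tissue difference at 12 days, 41 of them expressed in both tissues, DESeq2 called 225 and 206, limma-voom 103 and 99, the 12 libraries alone 3 and 3, the muscle score 8 and 7 and the marrow score 3 and 2. In tendon, against 274, DESeq2 called 452, no filter 169, the 12 libraries 2, the muscle score 38 and tendon fitted alone 59. In bone, against 0, the numbers were 125 with DESeq2, 287 with limma-voom, 13 and 2 with the muscle and the marrow score and 7 with bone fitted alone. For the difference at 5 days, against 0, they were 48, 453, 5 and 6 in the same order, and 9 with the bone pair kept apart; for the change between days, against 1, they were 8 with DESeq2 and 3 with limma-voom. For the mean over tissues, against 75, they were 343, 167, 15 and 7, with 38 for no filter, 0 for the 12 libraries and 118 for the pair kept apart. The share with the same sign in bone was 51.0%, and 39.1% with separate fits.

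Without single libraries the counts were 9 to 356 and 8 to 330 for the difference over all genes and those expressed in both, 35 to 823 in tendon, 0 to 277 in bone, 0 to 6 at 5 days, 0 to 5 between days and 8 to 462 for the mean. Some differences that did not pass changed sign. Acta1 was 0.12 with the muscle score, Tppp3 -0.57 with the marrow score and -0.0048 to 0.44 without single libraries, and Sp7 -0.14 to 3.63 without them. Col1a1 was -0.0579 with limma-voom, -0.0578 with the muscle score, and -0.10 to 0.89 without single libraries. Tnmd was -0.52 with limma-voom, -0.15 with the muscle and -0.27 with the marrow score, and -0.33 to 0.68 without single libraries. Without them Scx was -0.29 to 0.18 and Ctsk -0.31 to 0.33. The cause of these moves was not tested.

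The labels do not say whether samples with one number share an animal, and the numbers were not treated as pairs. Deviations from the group mean correlated above 0.1 in 5 of 18 same-number pairs (r from -0.12 to 0.41) and 8 of 36 others (-0.33 to 0.39). With 3 samples in each group these deviations are not independent, so the counts cannot decide whether the numbers are pairs. With the replicate block, shared or within tissue, 0 and 0 genes passed for the difference, over all genes and those expressed in both, 1 and 0 in tendon, and 0 and 0 for the mean; Tnmd was -0.0071 with the block within tissue. Irx5, Msi1, Sstr2 and Notum rest on few counts in tendon, which limits their folds.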

Other observations

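The mean change over tendon and bone, a test added after the data were seen, passed for 75 of 19845 genes (0.378%; edgeR), and for 67 of those expressed in both (0.492%), 38 higher and 29 lower with stimulation. The 75 became 462 and 140 without replicates 2 of stimulated tendon and stimulated bone, 8 without stimulated tendon replicate 3, and 8, 42 and 11 without unstimulated tendon replicates 1, 2 and 3. It was 18 and 22 without stimulated bone replicates 1 and 3, and 12 and 13 without unstimulated bone replicates 1 and 3. A mean that passes does not show a like change: 11 of the 67 also passed the test of the tissue difference, Irx5 (-4.48 in tendon, -0.07 in bone) among them, and 0 genes passed in bone alone. Of these 67, 28 were separate in the same direction in both tissues. Of all 13622 genes expressed in both, 341 were separate in both tissues, 85 higher and 87 lower in both, and 86 and 83 in opposite ways with tendon higher and lower. Tppp3, the tendon sheath marker, fell by a mean of 1.23 ± 0.19 (log2 ± SE, adjusted p = 0.00698).

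Tmem100, a membrane protein of blood vessels, had 3.73, 3.15 and 2.03 CPM in stimulated tendon, against 11.6, 5.46 and 6.58 CPM in unstimulated tendon, and 18.2, 23.3 and 13.9 CPM in stimulated bone, against 36.7, 35.1 and 33.8 CPM in unstimulated bone. No libraries overlapped, and the mean change was -1.18 ± 0.21 (adjusted p = 0.0171, edgeR). Retnla, a secreted marker of alternatively activated macrophages, had 1.86, 4.30 and 3.48 CPM in stimulated and 6.48, 7.89 and 6.94 CPM in unstimulated tendon, and 4.005, 1.73 and 1.60 CPM in stimulated and 9.36, 11.2 and 7.24 CPM in unstimulated bone. Again no libraries overlapped (mean change -1.53 ± 0.32, adjusted p = 0.0346). The phosphate transporter gene Slc20a1 had a mean change of -0.57 ± 0.10 (adjusted p = 0.0171).

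Upward, the tyrosine phosphatase gene Ptpn1 had 57.6, 44.2 and 58.7 CPM in stimulated tendon, against 32.4, 35.9 and 32.0 CPM in unstimulated tendon, and 92.1, 75.6 and 91.3 CPM in stimulated bone, against 66.4, 75.3 and 70.5 CPM in unstimulated bone. The groups were separate in both tissues, narrowly in bone, and the mean change was 0.48 ± 0.08 (adjusted p = 0.00698, edgeR). Uck2, an enzyme of pyrimidine salvage, had a mean change of 0.83 ± 0.15 (adjusted p = 0.0209). These genes were chosen after their values were seen.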
